A study of Mus musculus with 4 samples.

Results

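Transcripts of 9 genes of glycogen metabolism were measured in MC38 cells, a mouse colon cancer cell line, across normoxia and hypoxia with and without interferon gamma (IFN-γ). The 9 genes were those whose NCBI gene number maps to the current mouse symbols Gys1, Gbe1, Pygl, Pygb, Ppp1r3b, Ppp1r3c, Pgm2, Ugp2 and Stbd1, out of 27179 genes in the deposited count table. The symbol Pgm2 belongs here to the gene whose older symbol is Pgm1, while the current Pgm1, formerly called Pgm2, is not among the 9 and is described beside them. The rule used the symbols alone and no measured value, but the list was drawn up with earlier results of these data known.

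The study asked how IFN-γ and low oxygen act together on cancer cells. There were 4 RNA-seq libraries, 1 per condition: untreated cells in normoxia (20% oxygen), untreated cells in hypoxia (1.5% oxygen), IFN-γ treated cells in normoxia and IFN-γ treated cells in hypoxia. By the study's methods IFN-γ was used at 5 ng/mL for 24 h, and the time spent in hypoxia was not given in the sources used here. All 4 came from the same unmodified cell line, with no second culture of any condition, so that none of the differences below has a replicate check. The libraries held 34302971 to 34537939 counts each, and in bulk RNA fewer cells carrying a transcript cannot be told apart from less of it per cell. The 12 genes listed as references for hypoxia all rose with low oxygen, with a median log2 change of 1.20, and the 10 listed for IFN-γ all rose with IFN-γ, with a median log2 change of 2.55. Of 9 markers of colon epithelium, Cdh1, Cdx2 and Cldn7 were at 0 counts in all 4 libraries. The summed level of the 9 was 2.48 to 3.26 CPM (counts per 1000000 of library size, with library sizes scaled by edgeR's TMM method). The 4 fibroblast markers summed to 99.4 to 135 CPM, nearly all of it from Col3a1 (2233 to 3238 counts) and Pdgfra (1077 to 1341). Col1a1 (29 to 66 counts) and Dcn (52 to 72) lay far lower. Col3a1 fell by 0.39 on the log2 scale with IFN-γ (edgeR adjusted p = 1.98e-07). The liver markers Alb and Ttr and the muscle marker Myh4 were at 0 counts, and the part of any other cell type in the results was not tested.

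Glycogen is a branched store of glucose in the cytosol. Phosphoglucomutase turns glucose 6-phosphate into glucose 1-phosphate, UGP2 joins it to UTP to give UDP-glucose, and glycogen synthase, encoded by Gys1 outside the liver, adds the glucose to chains that glycogenin has started and that the branching enzyme GBE1 then branches. Phosphorylase (PYGB and PYGL are the brain and liver forms) releases glucose 1-phosphate again, PPP1R3 proteins bring protein phosphatase 1 to glycogen and so favour its synthesis, and STBD1 binds glycogen and anchors it to membranes.

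Among the 9 members, the called changes with hypoxia were largest for the synthase and the branching enzyme. Gys1 rose 2.24-fold, Gbe1 rose 1.73-fold, Ugp2 rose 1.17-fold and Stbd1 rose 1.16-fold with hypoxia, while Pgm2, Ppp1r3c and the main phosphorylase Pygb did not pass the test. None of the 7 members that could be tested was called for IFN-γ. Of the remaining members, Pygl was counted at most 4 times in any library and Ppp1r3b not at all. The tests used edgeR's quasi-likelihood test on the counts, with 1 effect for oxygen and 1 for IFN-γ, and a gene was called at a Benjamini-Hochberg adjusted p under 0.05 over all 13580 genes tested. With 4 libraries and 3 fitted terms, 1 degree of freedom per gene was left, and it mixes the difference between cultures with any dependence of one stimulus on the other.

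**Figure D1:**
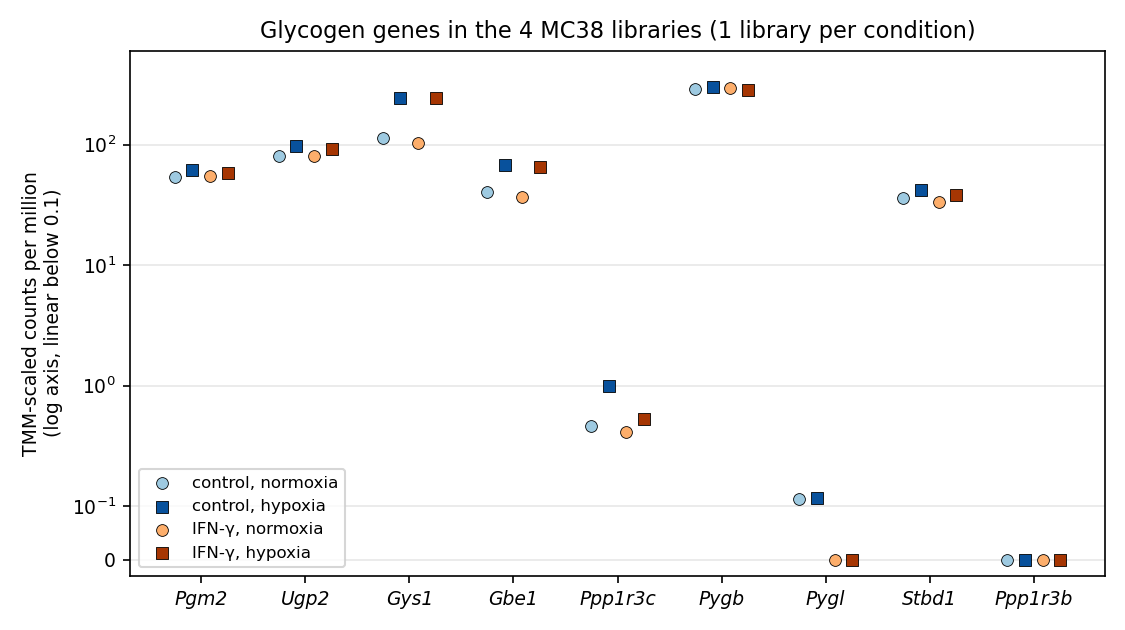
Level of each of the 9 genes in each of the 4 libraries, in TMM-scaled CPM (vertical axis, logarithmic above 0.1 and linear below it); 1 point is 1 library, circles are normoxia, squares hypoxia, blue untreated and orange IFN-γ. The Gys1 squares lie at 243.2 and 243.4 and the circles at 113.6 and 103.4, whereas the Pygb points lie between 283.1 and 298.2 and Ppp1r3b lies at 0.

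The sequence before the transcription start is shown for Gys1, Gbe1 and Pgm1, picked because they had the largest called changes with hypoxia among the glycogen genes, and for Pygb, which was not called, so that the same letters can be looked for in each. They are from RefSeq, build GRCm38.p6, 250 bases on the + strand ending just before the annotated start, Gys1 at chr7:45434589-45434838, Gbe1 at chr16:70313699-70313948, Pgm1 at chr4:99929201-99929450 and Pygb at chr2:150786546-150786795. Capitals mark ACGTG or GCGTG on either strand (written CACGT or CACGC where the match is on the other strand), the core letters of the element that hypoxia-inducible factors bind.
Gys1: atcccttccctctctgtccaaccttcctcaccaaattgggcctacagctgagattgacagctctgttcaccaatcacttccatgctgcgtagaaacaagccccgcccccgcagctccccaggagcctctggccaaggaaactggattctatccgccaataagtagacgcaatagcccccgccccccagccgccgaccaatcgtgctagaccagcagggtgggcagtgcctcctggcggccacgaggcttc
Gbe1: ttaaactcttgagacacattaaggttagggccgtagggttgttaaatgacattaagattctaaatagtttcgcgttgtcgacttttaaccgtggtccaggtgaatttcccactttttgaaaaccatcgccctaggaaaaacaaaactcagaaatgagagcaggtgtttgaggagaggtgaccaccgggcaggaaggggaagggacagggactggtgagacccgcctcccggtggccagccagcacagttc
Pgm1: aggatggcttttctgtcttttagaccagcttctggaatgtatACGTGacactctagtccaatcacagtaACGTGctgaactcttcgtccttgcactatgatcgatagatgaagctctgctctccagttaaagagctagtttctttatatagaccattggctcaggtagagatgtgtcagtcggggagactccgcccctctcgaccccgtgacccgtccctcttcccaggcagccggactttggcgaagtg
Pygb: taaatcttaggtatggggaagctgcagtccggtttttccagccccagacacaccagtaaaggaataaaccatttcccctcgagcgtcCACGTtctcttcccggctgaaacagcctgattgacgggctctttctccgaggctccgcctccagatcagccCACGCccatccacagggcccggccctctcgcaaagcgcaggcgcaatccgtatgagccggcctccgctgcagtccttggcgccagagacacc
In this stretch the Gys1 and Gbe1 sequences held no match, Pgm1 held 2 matches of ACGTG and Pygb held 1 of ACGTG and 1 of GCGTG.

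Read over a window of 250 bases before to 50 after each start, 43.8% of all 32851 RefSeq mouse windows held ACGTG or GCGTG on either strand (19.6% the former and 32.4% the latter). Windows were found for 8 of the 9 members, all but Ppp1r3b. The windows of Pgm2, Ppp1r3c, Pygb, Pygl and Stbd1 each held at least 1 match, as did 1 of the 2 windows of Ugp2, with 6 matching positions in it and 4 in that of Ppp1r3c. TTCNNNGAA, the letters that STAT proteins bind, with N for any base, was in 8.30% of all windows and in no member's window, on either strand. The windows of Gys1 and Gbe1 held no match, and neither did the other window of Ugp2. Whether a match bears on the change of a gene was not tested. These matches describe the letters of a short window only.

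Supply of UDP-glucose came first in the order of the pathway. Pgm2 encodes a phosphoglucomutase family enzyme that acts mainly on ribose and deoxyribose phosphates. It had 1870 counts in untreated normoxia, 2124 in untreated hypoxia, 1879 with IFN-γ in normoxia and 1998 with IFN-γ in hypoxia. Both hypoxic libraries were above both normoxic ones by a narrow margin, and the change of 0.14 on the log2 scale (SE 0.0708) was not called (edgeR adjusted p = 0.191).

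The current Pgm1 encodes the enzyme that carries most of the conversion between glucose 6-phosphate and glucose 1-phosphate in most tissues. Its counts were 3665, 8904, 3817 and 8440 in the same order of libraries. The hypoxic libraries held more than the normoxic ones with no overlap, and the log2 change was 1.21 (SE 0.0580, edgeR adjusted p = 5.26e-93), rank 113 of all genes tested by the size of the change upward. Within each library, where no scaling between libraries enters, there were 1.96 Pgm1 counts per Pgm2 count in untreated normoxia, 4.19 in untreated hypoxia, 2.03 with IFN-γ in normoxia and 4.22 with IFN-γ in hypoxia. Per kilobase of the median coding transcript the ratio was 1.14, 2.44, 1.18 and 2.46 in the same order. With the longest transcript as the length it was 1.84, 3.94, 1.91 and 3.97. Of all counts on the 4 genes of the family (Pgm1, Pgm2, Pgm2l1 and Pgm3), Pgm2 took 25.7% and 25.8% in the normoxic libraries and 16.7% and 16.6% in the hypoxic ones, against 50.3% and 52.4%, then 70.0% and 70.2%, for Pgm1. Scaled by median coding transcript length, Pgm2 took 40.6% and 40.2% in normoxia and 26.9% and 26.8% in hypoxia. On that scale Pgm1 took 46.3% and 47.6%, then 65.7% and 66.0%. The exons of Pgm1 share 398 bases with the antisense gene Itgb3bp, 13.6% of their length, and the strand setting of the counting was not given. Itgb3bp itself was not called, with a log2 change of 0.07 in hypoxia (edgeR adjusted p = 0.743).

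Ugp2 encodes the enzyme that makes UDP-glucose, which also feeds glycoprotein, glycolipid and proteoglycan synthesis. It had 2803 counts in untreated normoxia, 3347 in untreated hypoxia, 2760 with IFN-γ in normoxia and 3152 with IFN-γ in hypoxia. Both hypoxic libraries were higher, and the log2 change of 0.23 (SE 0.0644) passed the test with an edgeR adjusted p of 0.0056. It passed in 4 of 6 other analyses, with adjusted p from 0.0116 to 0.149. The rise was much smaller than that of Gys1. There were 0.713 and 0.778 Ugp2 counts per Gys1 count in the normoxic libraries, untreated and IFN-γ treated, and 0.398 and 0.378 in the hypoxic ones.

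Gys1, the synthase, showed the largest called change among the members. There were 3934 counts in untreated normoxia, 8408 in untreated hypoxia, 3546 with IFN-γ in normoxia and 8339 with IFN-γ in hypoxia. After scaling, the hypoxic libraries lay at 243.2 and 243.4 CPM, untreated and IFN-γ treated, and both normoxic ones lay far below them. The log2 change was 1.17 (SE 0.0581, edgeR adjusted p = 1.89e-85), rank 132 of the 13580 genes by change upward. Taken as single pairs of libraries with 95% intervals for counting error only, it was 1.10 (1.04 to 1.15) without IFN-γ and 1.23 (1.18 to 1.29) with IFN-γ. The other synthase gene, Gys2, the liver form, had 0 counts in untreated normoxia and 2 in each other library. Gys1 exons share 310 bases (6.47%) with the antisense gene Ruvbl2, whose own log2 change in hypoxia was 0.13 and was not called (edgeR adjusted p = 0.0715).

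Gbe1, the branching enzyme, moved in the same direction by a smaller amount. Its counts were 1400 in untreated normoxia, 2338 in untreated hypoxia, 1251 with IFN-γ in normoxia and 2232 with IFN-γ in hypoxia. The groups did not overlap, and the log2 change was 0.79 (SE 0.0729, edgeR adjusted p = 5.74e-25), rank 359 by change upward. In single pairs it was 0.74 (0.65 to 0.84) without IFN-γ and 0.84 (0.74 to 0.94) with IFN-γ. There were 2.81 and 2.83 Gys1 counts per Gbe1 count in normoxia and 3.60 and 3.74 in hypoxia, untreated and IFN-γ treated. No stretch of 31 bases in Gbe1 transcripts was found in another gene.

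Of the 9 members, 4 were raised and 0 were lowered by hypoxia, 3 were not called and 2 were too low to test. Over all 13580 genes tested, 8.23% were raised and 6.83% were lowered. The median log2 change of the 7 tested was 0.23, against 0.00 over all tested genes.

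**Figure D2:**
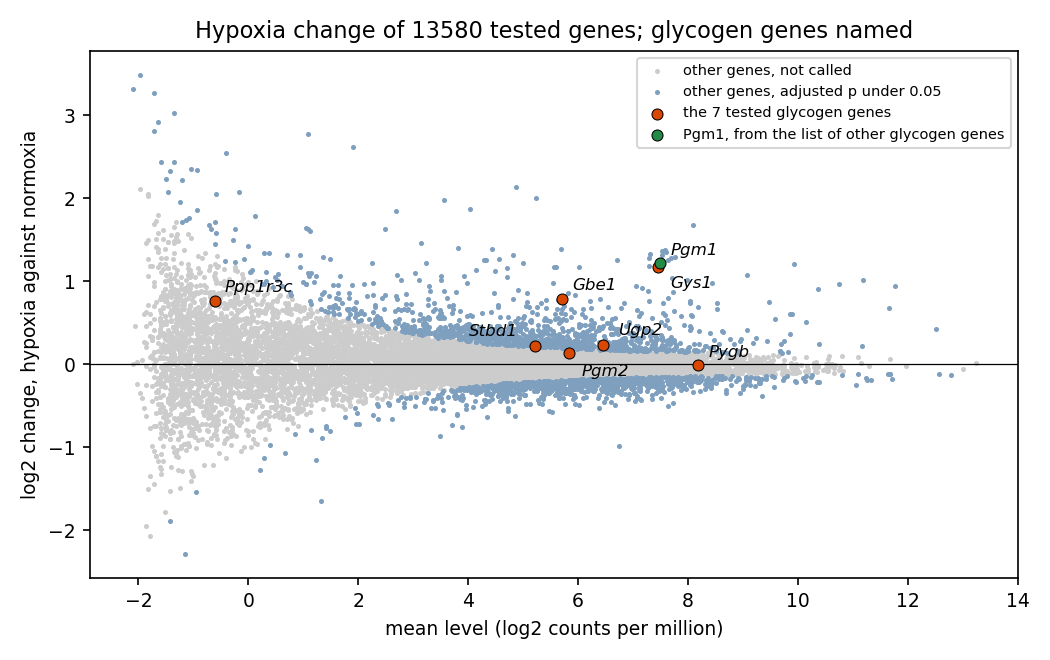
Log2 change with hypoxia (vertical axis) against mean level in log2 CPM (horizontal axis) for the 13580 tested genes; 1 point is 1 gene, blue where the adjusted p was under 0.05, orange for the 7 tested glycogen members and green for Pgm1. Gys1 (1.17) and Pgm1 (1.21) lie close together in the upper right, Gbe1 lies at 0.79, Ugp2, Stbd1 and Pgm2 lie between 0.14 and 0.23, and Pygb lies at the zero line.

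Phosphorylase transcripts, those of glycogen breakdown, were nearly all Pygb in these cells. Pygb had 10085 counts in untreated normoxia, 10311 in untreated hypoxia, 10106 with IFN-γ in normoxia and 9702 with IFN-γ in hypoxia. It was the most abundant of the 9 members, all 4 libraries overlapped, and the log2 change of -0.01 with hypoxia (SE 0.0532) was not called (edgeR adjusted p = 0.926). Single pairs gave 0.03 (-0.01 to 0.07) without IFN-γ and -0.06 (-0.10 to -0.02) with IFN-γ, so that a change of the size of that of Gys1 or Gbe1 lay outside both counting intervals.

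Pygl, the liver phosphorylase, was counted 4 times in each untreated library and 0 times in each IFN-γ library, and was too low to test. Both untreated libraries are above 0 by no more than 4 counts, and the limit that a count of 0 allows is 3 counts, so no difference was detectable at this depth. Of all counts on the 3 phosphorylase genes Pygb held 99.5% in untreated normoxia, 99.6% in untreated hypoxia and 99.5% in both IFN-γ libraries. Pygm, the muscle form, held 0.386% to 0.502%. Pygl held 0.0395% and 0.0386% in the untreated libraries, normoxic and hypoxic, and 0 in the IFN-γ libraries, which allows a share of up to 0.0308%. Stretches of 31 bases shared with another gene made up 0.796% of Pygb and 1.41% of Pygl transcripts, which leaves the few counts of Pygl uncertain.

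The synthase rose against a phosphorylase that did not pass the test, and the ratio of the 2 transcripts within each library shows both at once. There were 0.390 Gys1 counts per Pygb count in untreated normoxia (95% counting interval 0.376 to 0.405) and 0.815 (0.792 to 0.839) in untreated hypoxia. With IFN-γ there were 0.351 (0.338 to 0.365) in normoxia and 0.860 (0.835 to 0.885) in hypoxia. The intervals of the hypoxic libraries were well clear of those of the normoxic ones. Per kilobase of the median coding transcript the ratio went from 0.569 to 1.19 in untreated cells and from 0.512 to 1.25 in IFN-γ treated cells, so that the order of the pair turned with oxygen on that scale. With the longest transcript as the length it went from 0.415 to 0.867 and from 0.373 to 0.913, and Pygb stayed the higher.

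**Figure D3:**
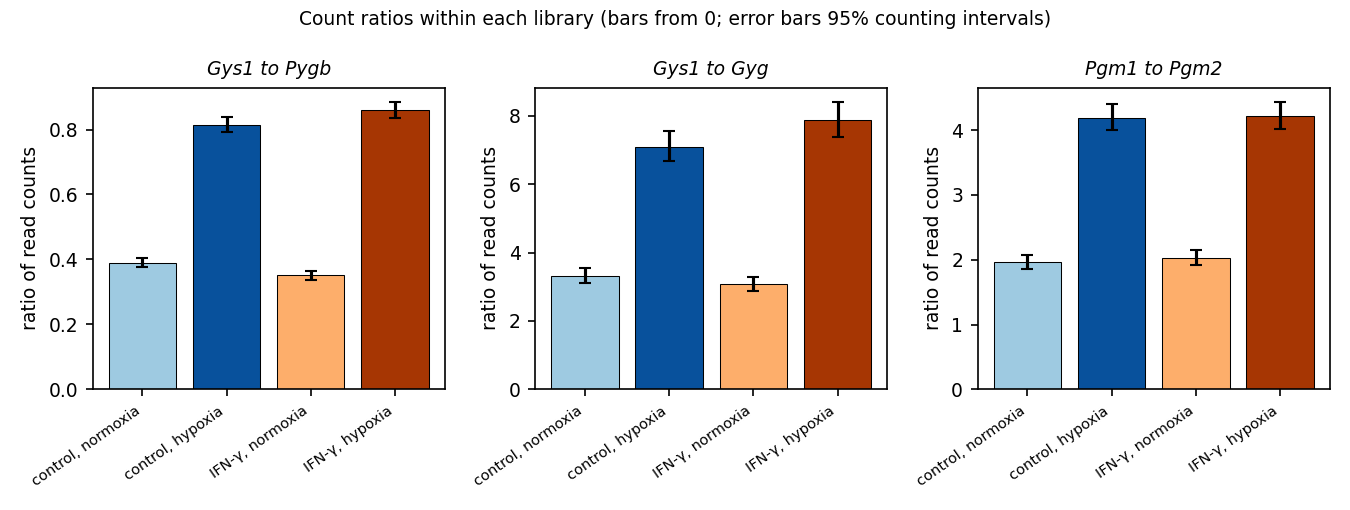
Ratio of read counts of Gys1 to Pygb (left), Gys1 to Gyg (middle) and Pgm1 to Pgm2 (right) in each of the 4 libraries; bars start at 0 and error bars are 95% counting intervals. In each panel both hypoxic bars stand at more than 2 times the normoxic bars, with Gys1 to Gyg at 3.32 and 3.07 in normoxia and 7.10 and 7.88 in hypoxia, untreated and IFN-γ treated.

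The regulatory members were low. Ppp1r3b, the targeting subunit best known from liver, was at 0 counts in every library, which allows up to 3 counts or 0.0875 CPM in the shallowest. Ppp1r3c, also called PTG, had 16 counts in untreated normoxia, 34 in untreated hypoxia, 14 with IFN-γ in normoxia and 18 with IFN-γ in hypoxia. Both hypoxic libraries were higher, the one with IFN-γ by only 2 counts over untreated normoxia. The log2 change of 0.76 (SE 0.487) was not called (edgeR adjusted p = 0.325). The single pairs gave 1.07 (0.19 to 2.05) without IFN-γ and 0.35 (-0.73 to 1.48) with IFN-γ. The first interval lay above 0 and the second held 0, and both held a change as large as that of Gys1. With every count divided by 2, for the reason given with the processing, the first interval ran from -0.20 to 2.51 and held 0 as well.

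The family as a whole was scarce, with 306, 356, 269 and 368 counts on its 7 genes in untreated normoxia, untreated hypoxia, IFN-γ normoxia and IFN-γ hypoxia. Ppp1r3e held the largest share, 45.7% to 57.2%, followed by Ppp1r3d with 20.8% to 24.9% and Ppp1r3f with 15.4% to 24.2%. Ppp1r3c held 5.23% (exact 95% interval 3.02 to 8.35), 9.55% (6.70 to 13.1), 5.20% (2.87 to 8.58) and 4.89% (2.92 to 7.62) in that order of libraries, with overlapping intervals throughout. Ppp1r3a, the muscle form, and Ppp1r3g were at 0 counts like Ppp1r3b. None of the 4 counted genes of the family was called for either stimulus. Of the Ppp1r3f transcripts, 52.2% of the 31-base stretches were shared with another gene, so its share is uncertain.

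**Figure D4:**
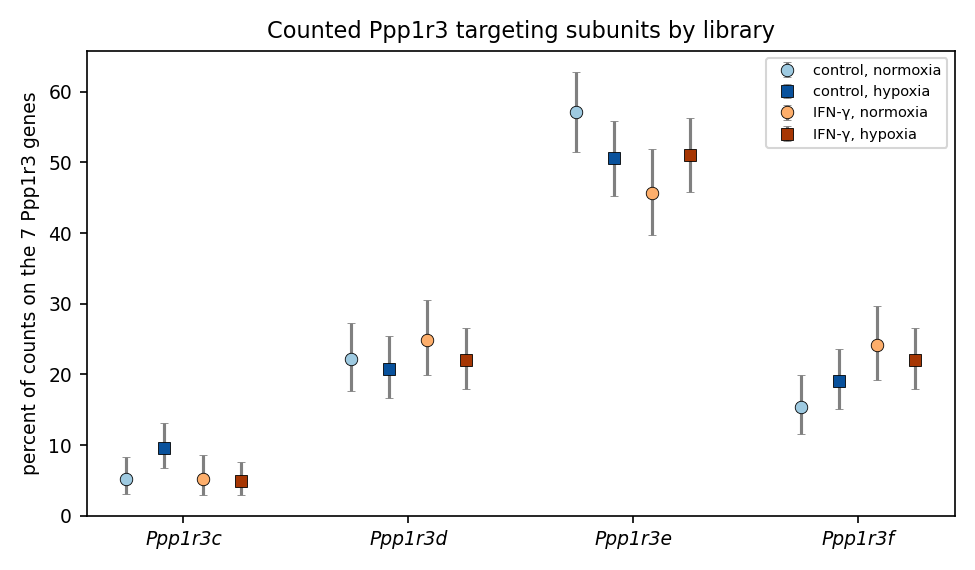
Share of the counts on the 7 Ppp1r3 genes (vertical axis, percent) held by each of the 4 genes with counts, in each library; points are single libraries and bars exact 95% binomial intervals for counting error. Ppp1r3e lies highest in all 4 libraries (45.7% to 57.2%) and Ppp1r3c lowest (4.89% to 9.55%).

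Stbd1, which ties glycogen to membranes and links it to lysosomal uptake, had 1239 counts in untreated normoxia, 1445 in untreated hypoxia, 1136 with IFN-γ in normoxia and 1316 with IFN-γ in hypoxia. Each hypoxic library was above both normoxic ones. The log2 change of 0.22 (SE 0.0772) was called with an edgeR adjusted p of 0.0343. It was the call nearest to the threshold among the members and was made in 2 of 6 other analyses, with adjusted p from 0.0436 to 0.386.

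**Figure D5:**
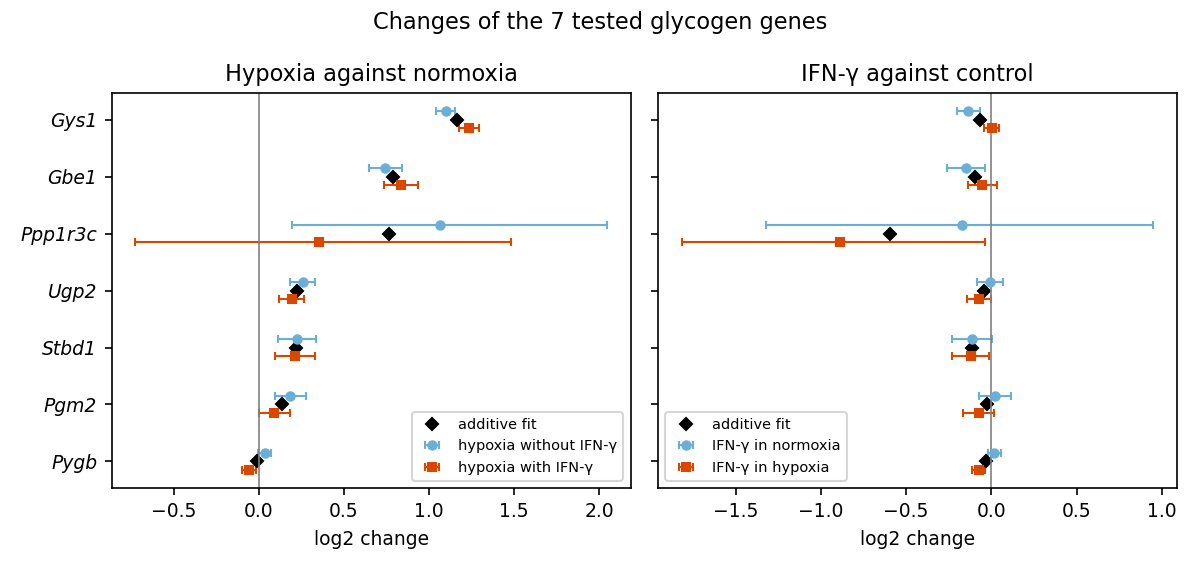
Log2 change of the 7 tested members with hypoxia (left) and with IFN-γ (right) on a common list of genes; diamonds are the additive fit, blue circles and orange squares single pairs of libraries with 95% counting intervals. On the left Gys1 and Gbe1 lie well to the right of 0 in both pairs and Pygb at 0, and on the right the diamonds of all but Ppp1r3c (-0.59) lie between -0.12 and -0.03.

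No member passed the test for IFN-γ. Of the 7 tested members 0 were raised and 0 lowered, where IFN-γ raised 4.76% and lowered 1.10% of all genes tested. At an adjusted p under 0.05 none was called in any of the 6 other analyses, DESeq2 included, 0 had an unadjusted edgeR p under 0.05, and the smallest edgeR adjusted p of a member was 0.577, for Stbd1. The fitted log2 changes were -0.06 for Gys1, -0.10 for Gbe1, -0.12 for Stbd1, -0.04 for Ugp2, -0.03 for Pgm2 and -0.03 for Pygb. All were below 0, as was the median of -0.01 over all tested genes, and their median including Ppp1r3c (-0.59 on at most 34 counts) was -0.06. The intervals of the single pairs were narrow for the abundant members, with Pygb at 0.02 (-0.02 to 0.06) in normoxia and -0.07 (-0.11 to -0.03) in hypoxia. In the same order Gys1 was at -0.14 (-0.20 to -0.07) and 0.001 (-0.04 to 0.04). Gbe1 was at -0.15 (-0.26 to -0.04) and -0.05 (-0.14 to 0.03). Stbd1 was at -0.11 (-0.23 to 0.01) and -0.12 (-0.23 to -0.01), and Ugp2 at -0.01 (-0.08 to 0.07) and -0.07 (-0.14 to -0.003). Several of these intervals left out 0, but they cover counting error only. With every count divided by 2, the interval of Gbe1 in normoxia ran from -0.30 to 0.01 and held 0. So did those of Stbd1 (-0.28 to 0.03) and Ugp2 (-0.17 to 0.03) in hypoxia. Those of Gys1 in normoxia (-0.23 to -0.04) and Pygb in hypoxia (-0.13 to -0.02) still left out 0.

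Whether IFN-γ altered the response to hypoxia was examined as the difference between the 2 hypoxia changes, with IFN-γ minus without. It was 0.14 (0.06 to 0.22) for Gys1, 0.09 (-0.04 to 0.23) for Gbe1, -0.07 (-0.17 to 0.04) for Ugp2, -0.01 (-0.17 to 0.15) for Stbd1, -0.10 (-0.22 to 0.03) for Pgm2 and -0.09 (-0.15 to -0.04) for Pygb on the log2 scale. The intervals of Gys1 and Pygb leave out 0 in opposite directions, but they cover counting error only. The same difference ran from -0.36 to 0.40 over the central 95% of the 10443 genes counted 100 times or more in each library, and all 6 of these members lay inside that range. Ppp1r3c, at -0.71 (-2.04 to 0.61), was too low to place. With 1 culture per condition the difference could not be tested further.

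Levels between genes were compared per kilobase of the median coding transcript, as means over the 4 libraries. Pygb came first with 74.6 CPM per kilobase, followed by Gys1 with 65.6, Pgm2 with 40.0, Ugp2 with 37.0, Stbd1 with 29.7 and Gbe1 with 18.0. Ppp1r3c lay far below with 0.218. The mean of Gys1 joins 2 unlike states, with 42.4 and 38.6 in the normoxic libraries and 90.7 and 90.8 in the hypoxic ones, while Pygb ran from 72.4 to 76.3. Neighbours in the middle of this order were not separable, because Ugp2 (32.6) came above Pgm2 (24.1) when the longest transcript was used.

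The rest of the glycogen machinery was looked at through 25 further genes, of which 20 were tested. Hypoxia raised 3 of them, Pgm1 and Ppp1cb among them, and lowered 0, against 8.23% raised and 6.83% lowered of all genes tested. Their median log2 change was 0.07. For IFN-γ 0 were called, with a median of -0.07, against 4.76% raised and 1.10% lowered of all genes tested. For IFN-γ 2 had an unadjusted edgeR p under 0.05, Gaa and Ppp1cc, named for that reason after their values were seen. Ppp1cb, a catalytic subunit of protein phosphatase 1, had 8242, 9744, 8140 and 8987 counts in the order used above and rose by 0.19 (SE 0.0543, edgeR adjusted p = 0.0045), with 17.3% of its 31-base stretches shared with another gene. Gyg, glycogenin, which starts the chains, had 1185, 1184, 1154 and 1058 counts and was not called, and neither were the phosphorylase kinase genes Phka1, Phka2, Phkb and Phkg2 or the synthase kinases Gsk3a and Gsk3b. Nhlrc1, the ubiquitin ligase malin that acts on glycogen enzymes, was at 0 counts in all 4 libraries, and Gys2 had at most 2.

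Other lists show where the glycogen genes stood among the reactions around them. Of 11 genes of glucose entry and glucose 6-phosphate, all tested, hypoxia raised 8 and lowered 0, with a median log2 change of 0.73. They included the glucose transporter Slc2a1 at 1.29, the hexokinases Hk2 at 0.88 and Hk1 at 0.73, the phosphofructokinases Pfkl at 1.08 and Pfkp at 0.98, the glucose 6-phosphate transporter Slc37a4 at 0.66 and glucose phosphate isomerase Gpi1 at 0.54. The changes of Gys1 (1.17) and Pgm1 (1.21) lay between those of Pfkl and Slc2a1, and that of Gbe1 (0.79) between those of Hk1 and Hk2. Of 10 genes that make or use UDP-glucose and UDP-galactose, hypoxia raised 3, Galk1 at 0.73 and Ugdh at 0.39 among them, and lowered 0, with a median of 0.01, and IFN-γ raised 1, Uggt1, at 0.28. Of 7 subunits of AMPK, a kinase with a glycogen-binding domain, 6 were tested. Hypoxia raised Prkab2 (0.40) and lowered Prkab1 (-0.22), and IFN-γ changed 0. Over all genes tested hypoxia raised 8.23% and lowered 6.83%, and IFN-γ raised 4.76% and lowered 1.10%.

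The genes whose pattern over the 4 libraries was most like that of Gys1 were sought among 10345 named genes counted 100 times or more in each library, by the Euclidean distance between mean-centred log2 CPM. They were Apln at a distance of 0.0234, Kdm4b at 0.0442 and Egln3 at 0.0526. Apln, the peptide apelin, had 1062, 2271, 940 and 2222 counts, and its log2 change in hypoxia was 1.17. Kdm4b is a histone demethylase and Egln3 an oxygen-dependent prolyl hydroxylase, with the same change of 1.17 each. A change close to that of Gys1 follows from the way these genes were chosen. For Ppp1r3c, whose 14 to 34 counts make its pattern imprecise, the nearest were Mxd4 (0.228), H2aw (0.284) and Mlph (0.292). Pygl varied by more than 1 log2 unit only through counts of 0 to 4, and its nearest genes lay at distances over 2.5. These distances rest on 4 libraries and are descriptions only.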

How the data were processed

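RNA from the 4 MC38 cultures was sequenced as poly-A selected, strand-specific paired-end libraries on the DNBSEQ platform. Reads were aligned with HISAT2 (version not given in the sources used here), and the submitters' processing notes name featureCounts and mm10. The annotation and the strand setting of the counting were not given. The authors deposited 1 table of whole-number read counts for 27179 NCBI gene numbers, not normalized, and 25275 of these matched a symbol in RefSeq (GRCm38.p6). The p-values rest only on how far these 4 libraries depart from additive effects of oxygen and IFN-γ, with that spread pooled across genes. They include no spread between replicate cultures of a condition.

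Counts were analysed with edgeR 4.0.16 in R 4.3.3: library sizes scaled by TMM, genes kept by edgeR's expression filter at a minimum count of 10, quasi-likelihood test with additive terms for oxygen and IFN-γ, Benjamini-Hochberg adjustment over the 13580 genes kept. The method was tested on simulated data with a hypoxia effect or none, no IFN-γ effect and 1 common spread for all genes. Those data held no dependence of one stimulus on the other, so the simulation could not show its influence. DESeq2 1.42.0 and 5 other settings were alternatives. Log2 ratios of single library pairs were taken on CPM with 0.5 added to each count, with exact 95% intervals. Coding transcript lengths and shared stretches of 31 bases were from GENCODE vM21. All intervals and limits cover counting error only, and a count of 0 was taken to allow 3 counts.

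Small counts were even more often than odd: of the genes with 1 to 6 counts, 64.9% to 68.3% per library had an even count, so that counts may not be independent fragments and the counting intervals may be too narrow. The cause was not tested. Intervals with every count halved were added after the data were seen.

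The members and gene lists were chosen with earlier results of these data known. Named were all 9 members, from each further list the called genes (at most 8, with a mean of at least 20 counts) and those at 3 counts or fewer, and the 3 nearest genes of members that varied by at least 1 log2 unit. Single values of some genes of the further lists are not reported here.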

Additional observations from a re-analysis of the deposited data

Results flagged for a closer look

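In 3 members a pair of single-library log2 changes pointed in opposite directions in the 2 states, and the differences were not tested. For Gys1 the change with IFN-γ was -0.14 in normoxia and 0.0011 in hypoxia. For Pygb the change with hypoxia was 0.035 without IFN-γ and -0.057 with IFN-γ, and that with IFN-γ was 0.017 in normoxia and -0.075 in hypoxia. For Pgm2 the change with IFN-γ was 0.021 in normoxia and -0.075 in hypoxia. All are small beside the hypoxia changes of Gys1 and Gbe1, and with 1 library per condition culture differences cannot be told apart from a dependence on the other stimulus.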

How the results depend on the processing

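The hypoxia calls of Gys1, Gbe1 and Pgm1 held in all 6 alternative analyses, with adjusted p of at most 0.0023, 0.0145 and 0.0015. Ugp2 was not called by DESeq2's Wald test or in edgeR with 2 libraries against 2 and no term for the other stimulus. Stbd1 was not called in those, nor without the low-count filter, nor in DESeq2 with 2 against 2. In DESeq2's Wald test and in edgeR with 2 against 2, members raised by hypoxia then numbered 2 and 2 in place of 4, and further glycogen genes raised numbered 1 in place of 3 in the latter. Genes raised by hypoxia numbered 362 in DESeq2's Wald test, 150 in edgeR with 2 against 2 and 430 in DESeq2 with 2 against 2, in place of 1117, and genes lowered 214, 26 and 364 in place of 927. Genes raised by IFN-γ numbered 353, 239 and 317 in place of 647, and genes lowered 16, 3 and 6 in place of 149, with 99 under DESeq2 size factors, 71 without the filter and 74 with at least 10 counts in every library. The IFN-γ change of Pgm1 turned from 0.0015 to -0.023 in edgeR and -0.018 in DESeq2 with 2 against 2. The causes were not tested.

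No paired analysis was possible because each condition has 1 library. Leaving a library out of the additive fit leaves no residual degree of freedom, so each pair alone is given as a value. Precision is limited for Ppp1r3c, Pygl and Ppp1r3b by their counts, and for all members by the lack of a second culture.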

Other observations

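Gaa, the lysosomal enzyme that digests glycogen, was singled out after its values were seen. It had 10014 counts in untreated normoxia, 8115 in untreated hypoxia, 9688 with IFN-γ in normoxia and 9913 with IFN-γ in hypoxia. The library of untreated hypoxia stood below the other 3. Its hypoxia change was -0.30 on the log2 scale (95% counting interval -0.34 to -0.26) without IFN-γ and 0.03 (-0.01 to 0.07) with IFN-γ. The difference of 0.34 (0.28 to 0.39) lay inside the range of -0.36 to 0.40 that holds the central 95% of genes counted 100 times or more in each library, and it was not tested. In the additive fit Gaa was not called for hypoxia, with a log2 change of -0.13 (edgeR adjusted p = 0.0766).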
